A study of Mus musculus with 12 samples.

Results

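Among the H3K27ac regions of mouse fetal liver at embryonic day 14.5, 391 of 18238 (2.14%) were broad and carried no H3K4me3 shared by its libraries. They were chosen from the authors' peak lists. Overlapping or touching peaks of the H3K27ac libraries were merged, and a merged stretch holding a peak of each library was kept as a consensus region. A consensus region of 8 kb or more was taken as a domain of this kind when it overlapped no consensus H3K4me3 region, built the same way from the H3K4me3 libraries. Width, H3K27ac and the absence of shared H3K4me3 therefore define these domains and are given as description. They were compared with 1061 broad domains with H3K4me3, meaning consensus H3K27ac regions of 8 kb or more that overlap one, and with 8842 consensus regions under 8 kb without H3K4me3.

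The series holds 12 samples from C57BL/6 mice at embryonic day 14.5, with no mutant or treated group. Per the labels, whole fetal liver was used for ChIP-seq of H3K27ac (2 libraries), H3K4me1 (3), H3K4me2 (2) and H3K4me3 (2) and for 1 input library, which entered no comparison. ATAC-seq was done on proerythroblasts (2 libraries), also per the labels. The series title concerns hyperacetylated domains and enhancers.

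H3K27ac is an acetyl mark on histone H3, written by acetyltransferases of the CBP family, that is found at active promoters and active enhancers. Long stretches of it, often called super-enhancers or stretch enhancers, are known to lie near genes that a cell type expresses strongly. H3K4me1 is typical of enhancers and of the flanks of promoters, H3K4me3 is concentrated at the start sites of active genes, and H3K4me2 is found at both kinds of element. ATAC-seq marks nucleosome-poor DNA, where transcription factors bind, through a transposase that cuts accessible chromatin. At this stage most red cells form in the fetal liver, which also holds hepatocyte precursors and other blood cells. Proerythroblasts are early red cell precursors.

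The marks were thus read in a mixed tissue and accessibility in a single cell type, and a mark from other liver cells cannot be told apart from one in proerythroblasts. The labels do not say that libraries of a mark came from separate embryos, so the spread between libraries may be technical. The lists hold no read counts, so depth is unknown, and a list with fewer peaks may come from a shallower library. The labels name different H3K4me2 antibodies among the sample characteristics and in the protocol, and every H3K4me2 value rests on whichever was used. Peak names in the 3 H3K4me1 lists carry the tag Mel, which the labels do not explain, so the cell source of every H3K4me1 value rests on the label. The protocol text attached to the ATAC samples describes ChIP, and the isolation of proerythroblasts and the transposition are not described in the sources used here. No mm9 gene annotation was used here, so domains are given by position, and the tissue labels were not checked against marker genes.

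The domains without H3K4me3 covered 4.71 Mb, which is 7.54% of the bases in consensus H3K27ac regions. Their width ran from 8014 to 38640 bp with a median of 10558 bp, against a median of 12309 bp and a maximum of 74472 bp in broad domains with H3K4me3. Of the 391 domains, 57 spanned 16 kb or more and 19 spanned 20 kb or more. They lay on every autosome and on X, with 43 on chromosome 2 and 7 on X. Their share of a chromosome's consensus H3K27ac regions was highest on chromosome 2 (2.92%) and lowest among the autosomes on chromosome 7 (1.09%). Of the 2 consensus H3K27ac regions on Y, 0 were domains of this kind.

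H3K27ac itself filled these domains differently in its libraries. Peaks covered 93.6% of the bases in replicate 1 and 85.3% in replicate 2. Replicate 1 held a single peak in 292 domains and replicate 2 in 176, and both did so in 133. A single peak of 8 kb or more was present in 312 domains in replicate 1, in 213 in replicate 2 and in both for 183. With replicate 2 as the only H3K27ac library, the rule gives 245 domains. Where only 1 library had such a peak, that peak reached 8 kb by itself. Where neither had one, reaching 8 kb rests on merging the peaks of both libraries.

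The fold enrichment over background, the authors' own value for each peak, was averaged over the peaks of a domain weighted by bases. In H3K27ac replicate 1 it ran from 2.45 to 12.2 across the 391 domains with a median of 3.95, and in replicate 2 from 2.30 to 9.10 with a median of 3.61. The order of the domains by fold enrichment was nearly the same in both libraries, with a Spearman rho of 0.97 over 391 domains that share the region boundaries. For the share of a domain covered by H3K27ac peaks, the rho between the libraries was −0.12. The median fold enrichments in broad domains with H3K4me3 were 4.87 and 4.20, and in regions under 8 kb without it 2.87 and 2.71. At the width threshold, the narrowest member was chr14:47190559-47198572 (mm9, 8014 bp), with H3K27ac folds of 4.09 and 3.62. The widest region left out for its width alone was chr16:32518543-32526538 (7996 bp), with folds of 2.94 and 2.67.

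The absence of shared H3K4me3 did not mean the absence of any H3K4me3 call. In replicate 1, 9 domains (2.30%) held a peak, a low count that follows from the rule. In replicate 2, 202 domains did (51.7%, exact Clopper-Pearson 95% interval 46.6 to 56.7%), where 55.2% of all consensus H3K27ac regions held a replicate 2 peak. The share was 100% in broad domains with H3K4me3 and 9.78% in regions under 8 kb without it. Such intervals cover counting error only. The narrower regions had a median width of 1897.5 bp, against 10558 bp for the domains, and the part of width in these shares was not tested. Per 10 kb, the domains held 0.50 replicate 2 peaks, against 1.06 in broad domains with H3K4me3 and 0.42 in the narrower regions. The peaks covered 4.45% of domain bases and 2.82% of bases in the narrower regions. In 2 domains both libraries had a peak without the peaks overlapping, and 182 domains (46.5%) had none in either library.

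The replicate 2 peaks inside the domains were small and weak within their own list. The 236 peaks had a median fold enrichment of 3.12, against 6.50 over all 16886 peaks of the list, and were 787 bp wide at the median, against 1679 bp. Their median −log10 q was 2.64, and 16 of them had a value of 5 or more. Together they covered 4.45% of domain bases. Of these peaks, 168 (71.2%) lay on an ATAC site shared by both ATAC libraries and 204 (86.4%) on a peak of ATAC replicate 2. All but 9 of the domains thus lacked a call in replicate 1, while a weak call in replicate 2 was about as frequent as none. With H3K4me3 replicate 2 as the only H3K4me3 library, the rule gives 189 domains.

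H3K4me1 was present in nearly every domain. A consensus H3K4me1 region overlapped 382 domains (97.7%), where 90.2% of all consensus H3K27ac regions met one. Most consensus H3K27ac regions are narrower, and width by itself raises the chance of meeting a peak. In H3K4me1 replicates 1, 2 and 3, peaks covered 77.9, 69.4 and 74.4% of the bases of the domains. The corresponding values were 89.4, 81.7 and 86.3% in broad domains with H3K4me3 and 77.0, 68.4 and 72.5% in regions under 8 kb without it.

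H3K4me1 cover thus averaged 73.9 ± 4.28% in domains without H3K4me3, 85.8 ± 3.88% in broad domains with it and 72.6 ± 4.30% in regions under 8 kb without it (SD, n = 3 libraries). Within a library, the difference from broad domains with H3K4me3 was −11.9 ± 0.396 percentage points, negative in 3 of 3 libraries and far larger than its spread. The difference from the narrower regions was 1.26 ± 0.553 percentage points, positive in 3 of 3 libraries. The two-sided exact permutation test over libraries gave p = 0.25 for each, the smallest it can give with 3 libraries, and p = 0.5 after Benjamini-Hochberg adjustment over the 6 comparisons tested, so neither passed. The difference from broad domains with H3K4me3 was 0.097 with peaks of −log10 q 5 or more, −21.1 without H3K4me3 replicate 1 and −5.13 without H3K27ac replicate 1. The small difference from narrower regions turned to −2.29 when domains of 8 to 16 kb were set against regions of 4 to 8 kb. It turned to −5.90 when domains and narrower regions with a peak of either H3K4me3 library were left out. It was −5.47 without H3K4me3 replicate 1, 9.15 and 13.8 without H3K27ac replicate 1 or 2, and 3.23 with peaks of −log10 q 5 or more, so its size and sign rest on these choices. These values pool the bases of a class. By the median over single regions, H3K4me1 covered 86.8, 74.3 and 82.6% of a domain in replicates 1, 2 and 3. The same median was 98.2, 82.0 and 90.3% in the narrower regions, so by that measure the domains were lower in each library.

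The domains varied widely among themselves in H3K4me1. Cover per domain in replicate 1 ran from 0 to 100% with a median of 86.8%. The median was 91.0% in broad domains with H3K4me3 and 98.2% in regions under 8 kb without it. In 89 domains H3K4me1 covered 90% or more in each of the 3 libraries, and in 53 it covered under 50% in each. A set of 120 domains (30.7%) lay wholly inside a single consensus H3K4me1 region, whose median width was 1.53 times that of the domain. The counts of 89, 53 and 120 were not made in the other classes and describe the domains only. Cover did not follow width, with a Spearman rho of −0.03 between width and mean H3K4me1 cover over the 391 domains.

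H3K4me2 filled a smaller part of the domains. A consensus H3K4me2 region overlapped 363 domains (92.8%), where 84.4% of all consensus H3K27ac regions met one. Peaks covered 37.9% of domain bases in replicate 1 and 51.7% in replicate 2, against 69.3 and 78.5% in broad domains with H3K4me3 and 42.6 and 52.9% in regions under 8 kb without it. The means were 44.8 ± 9.76%, 73.9 ± 6.54% and 47.8 ± 7.26% (SD, n = 2 libraries). The difference within a library was −29.1 ± 3.22 percentage points from broad domains with H3K4me3 and −2.98 ± 2.5 from the narrower regions, negative in 2 of 2 libraries for both. The exact permutation test gave p = 0.5 in both cases, the smallest possible with 2 libraries, and 0.5 after adjustment. The difference from narrower regions was 3.26 without H3K27ac replicate 1 and 7.35 without H3K27ac replicate 2. It was −9.00 without H3K4me3 replicate 1, −9.25 with no peak of either H3K4me3 library and −11.0 with peaks of −log10 q 5 or more.

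Few domains were full of H3K4me2. It covered 90% or more in both libraries in 8 domains and under 50% in both in 177, and 18 had no H3K4me2 peak at all. These counts were not made in the other classes. By library, 92.8 and 95.4% of the domains held an H3K4me2 peak. The shares were 68.2 and 73.0% in regions under 8 kb without H3K4me3 and 100% in broad domains with it. H3K4me1 and H3K4me2 cover went together, with a Spearman rho of 0.88 over the 391 domains, whose bases both measures share. By quartile of mean H3K4me2 cover, H3K4me1 replicate 1 covered 45.2, 78.5, 91.9 and 96.6% of bases, lowest quartile first.

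**Figure D1:**
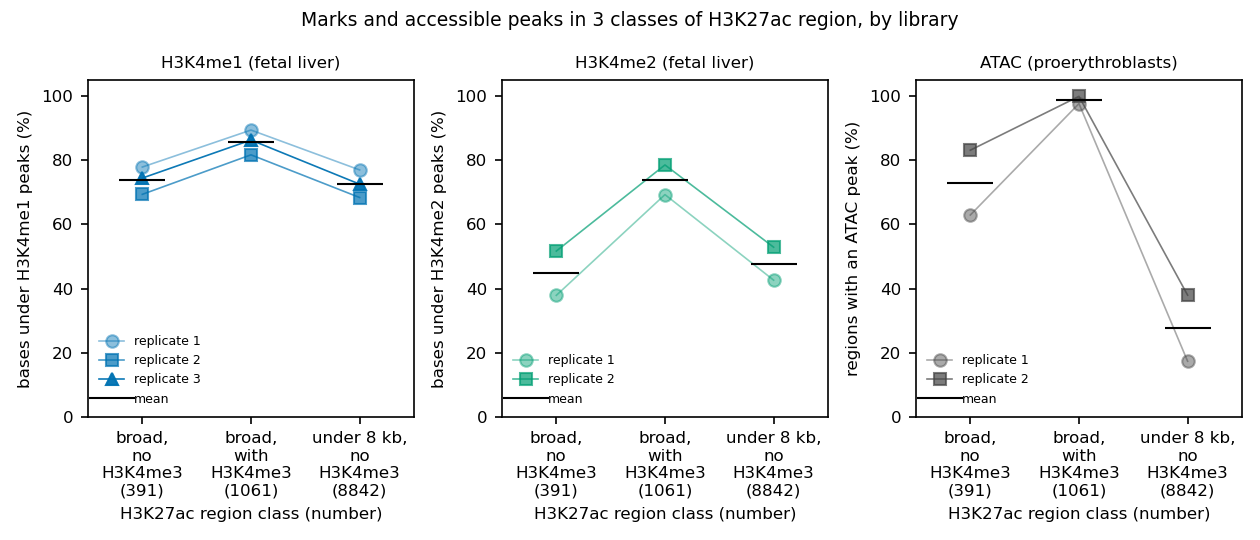
Percentage of bases under H3K4me1 peaks (left) and H3K4me2 peaks (middle), and percentage of regions with an ATAC peak (right), for broad H3K27ac domains without H3K4me3, broad domains with it and regions under 8 kb without it. Each line is a library and each bar a mean. H3K4me2 shows the widest gap between the broad classes in cover (44.8 against 73.9%), and the ATAC share of domains without H3K4me3 (73.0%) lies between that of broad domains with it (98.8%) and that of narrower regions (27.6%).

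Accessible chromatin was found in most of the domains, but less often than in broad domains with H3K4me3. An ATAC peak was present in 246 domains (62.9%) in replicate 1 and in 325 (83.1%) in replicate 2, against 97.6 and 99.9% of broad domains with H3K4me3 and 17.3 and 37.9% of regions under 8 kb without it. The means were 73.0 ± 14.3%, 98.8 ± 1.60% and 27.6 ± 14.6% (SD, n = 2 libraries). Within a library the difference was −25.8 ± 12.7 percentage points from broad domains with H3K4me3 and 45.4 ± 0.276 from the narrower regions, with the same sign in 2 of 2 libraries. The exact permutation test gave p = 0.5, its smallest value with 2 libraries, and 0.5 after adjustment. Broad domains with H3K4me3 hold an H3K4me3 region by definition. Of the 7944 consensus H3K27ac regions under 8 kb that overlap one, 93.3 and 96.8% held an ATAC peak in replicates 1 and 2. How far the class definition sets the difference from broad domains with H3K4me3 was not tested. The difference from broad domains with H3K4me3 was −41.7 without H3K4me3 replicate 1 and −16.7 without H3K27ac replicate 1. With peaks of −log10 q 5 or more it was −6.04, and the difference from the narrower regions 14.1.

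The difference from the narrower regions moved with width. Regions of 4 to 8 kb without H3K4me3 held an ATAC peak in 42.5 and 68.6% of cases. Domains of 8 to 10 kb did so in 57.8 and 78.9%, those of 10 to 12 kb in 58.1 and 83.9%, those of 12 to 16 kb in 68.8 and 83.8%, and those of 16 kb or more in 77.2 and 93.0%, in ATAC replicates 1 and 2 in turn. Broad domains with H3K4me3 stood at 97.0% or more in every width class and library. Per 10 kb, the domains held 0.75 and 1.18 ATAC peaks, against 1.39 and 1.82 in broad domains with H3K4me3 and 0.80 and 1.85 in regions under 8 kb without it. Per base, the domains were thus no richer in peaks than the narrower regions in either library.

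Every domain with an ATAC peak in replicate 1 also had one in replicate 2. Peaks in both libraries were present in 246 domains, in replicate 2 alone in 79 and in neither in 66 (16.9%, interval 13.3 to 21.0%), where 31.5% of all consensus H3K27ac regions had none. Replicate 2 has the longer list, with 28980 peaks against 18441. A consensus ATAC site, shared by both libraries, was found in 243 domains (62.1%, interval 57.1 to 67.0%), where the share over all consensus H3K27ac regions was 55.7%. Of the domains, 167 held 1 such site, 62 held 2, 11 held 3 and 3 held 4.

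The peaks were of middling strength within their lists. The 352 peaks of replicate 1 in the domains had a median fold enrichment of 6.05, against 6.36 over the list, and the 555 of replicate 2 had 6.15, against 5.95. In replicate 1, 96.3% of them met a peak of the other library, and in replicate 2, 60.7%. The 336 consensus ATAC sites in the domains had a median width of 504 bp, against 646 bp over all consensus ATAC sites. All 336 lay on consensus H3K4me1 and 334 (99.4%) on consensus H3K4me2. This overlap was not counted for ATAC sites elsewhere. At the summits of ATAC peaks, a different measure, cover was also high in regions under 8 kb without H3K4me3. It was 98.1% for H3K4me1 and 97.0% for H3K4me2 there, and 77.9 and 99.7% in broad domains with H3K4me3.

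The ATAC sites lay towards the middle of the domains. Of the 336 sites, 81 (24.1%) lay closer to the edge of their domain than to its centre. In 5 equal steps from edge to centre, the successive steps held 3.27, 13.4, 24.7, 30.1 and 28.6% of the sites. Where a domain held several, neighbouring sites were 4.22 kb apart at the median of 93 pairs, with quartiles of 1.34 and 6.46 kb and extremes of 0.42 and 14.0 kb.

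Both methylation marks also became denser inwards. The way from edge to centre was cut into 10 equal steps. In the outermost step, H3K4me1 covered 60.6, 47.6 and 54.3% of bases in replicates 1, 2 and 3, and in the innermost step 84.7, 80.3 and 82.7%. H3K4me2 covered 15.1 and 25.5% in the outermost step and 50.1 and 63.9% in the innermost. ATAC cover was 0.35 and 1.11% at the edge and highest in step 7 from the edge, at 5.31 and 8.75%. H3K27ac replicate 1 and replicate 2 covered 77.5 and 64.5% in the outermost step and 96.6 and 92.1% in the innermost, which follows in part from how the edges were set. The marks were denser at the edge of broad domains with H3K4me3, where H3K4me1 covered 78.5, 64.0 and 71.8% and H3K4me2 43.6 and 55.2% of the outermost step.

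**Figure D2:**
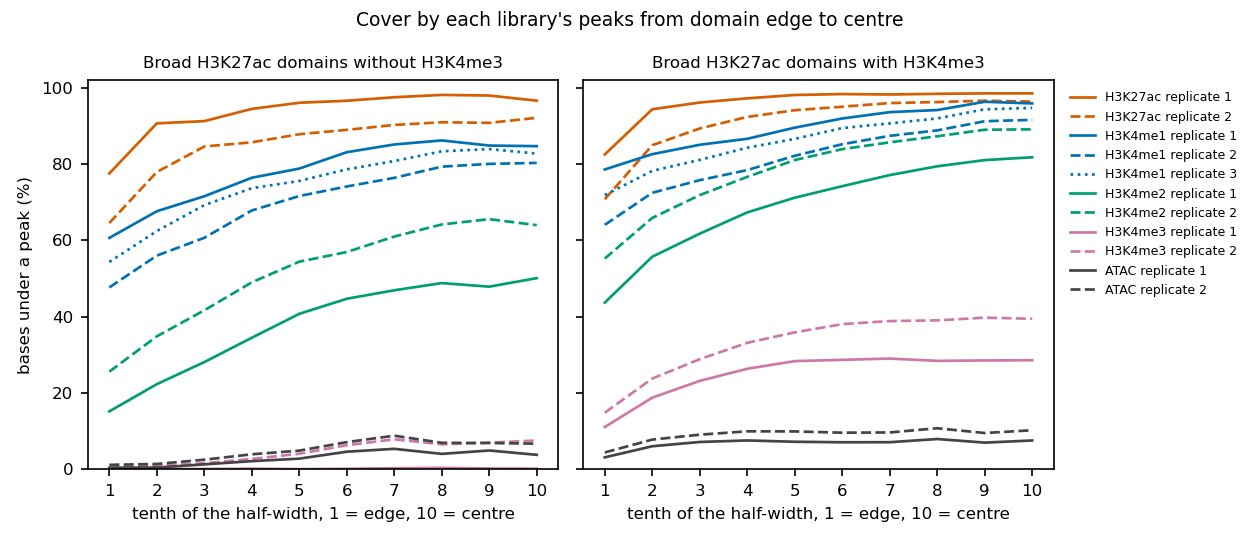
Percentage of bases under each library's peaks in 10 equal steps from the edge (1) to the centre (10) of broad H3K27ac domains without H3K4me3 (left) and with it (right). Line colour gives the mark and line style the replicate. In the domains without H3K4me3, H3K4me2 replicate 1 covers 15.1% at the edge and 50.1% at the centre, and H3K4me1 replicate 1 covers 60.6 and 84.7%.

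H3K4me2 was concentrated around the accessible sites, while H3K4me1 spread further. At the summits of ATAC peaks in the domains, H3K4me2 covered 98.2 ± 0.23% of positions and H3K4me1 99.3 ± 0.37% (SD over the mark's libraries, n = 2 and n = 3). At 1 kb from the summit and still inside the domain, H3K4me2 covered 80.9 ± 9.36% and H3K4me1 96.5 ± 1.74%. At 2 kb the values were 51.5 ± 17.2% and 86.6 ± 4.62%, and at 4 kb they were 38.3 ± 11.1% and 73.8 ± 4.91%. The averages over all bases of the 391 domains were 44.8 and 73.9%. In domains with a shared ATAC site, H3K4me2 covered 43.5 and 57.9% of bases and H3K4me1 83.8, 74.9 and 80.3%, by library. Both marks were also sparser towards the domain edges, and the part of this in the decline was not tested. No test was made of this decline, since positions in 1 genome are not replicates.

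The layout differed in broad domains with H3K4me3. H3K4me1 covered 77.9 ± 4.91% of their ATAC summits and 92.3 ± 3.08% of positions at 2 kb, so it was sparser at the summit than beside it, the reverse of the order in domains without H3K4me3. H3K4me2 covered 99.7 ± 0.12% of the summits and 84.2 ± 7.14% of positions at 2 kb. In regions under 8 kb without H3K4me3, H3K4me2 covered 97.0 ± 0.37% of the summits and 39.6 ± 10.7% of positions at 2 kb, nearer to the values in domains without H3K4me3. H3K4me1 covered 98.1 ± 1.15% and 74.5 ± 5.19% there, the same order as in domains without H3K4me3. Broad domains with H3K4me3 hold an H3K4me3 region by definition, and its part in their layout was not tested.

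**Figure D3:**
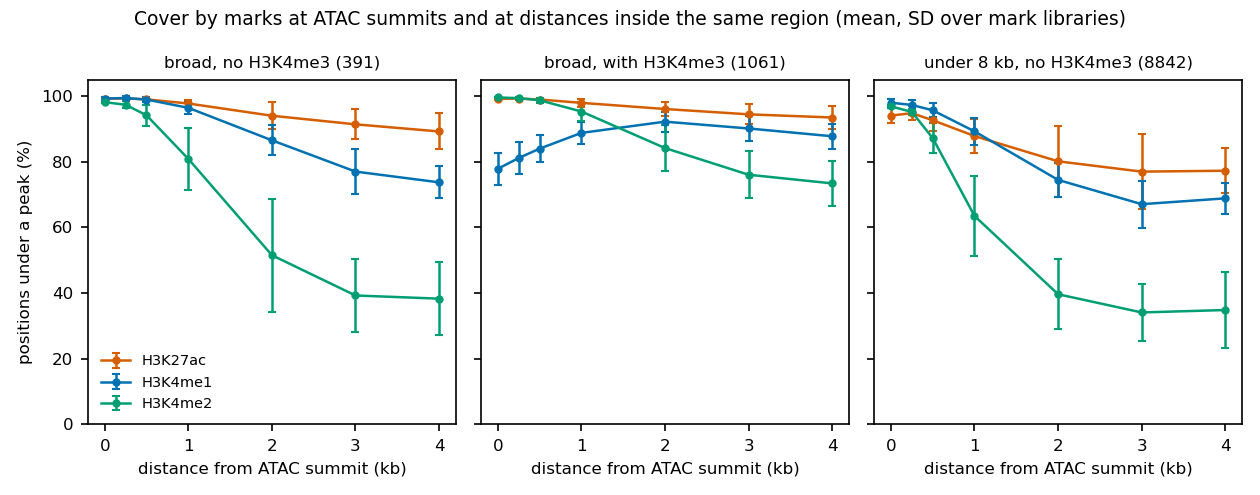
Percentage of positions under H3K27ac, H3K4me1 and H3K4me2 peaks at ATAC summits and at 0.25 to 4 kb from them inside the same region, for broad domains without H3K4me3, broad domains with it and regions under 8 kb without it. Points are means over ATAC and mark libraries and bars the SD over mark libraries. In domains without H3K4me3, H3K4me2 stands at 98.2% at the summit and 38.3% at 4 kb, and H3K4me1 at 99.3 and 73.8%.

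The domains differed among themselves in the methylation marks according to their ATAC peaks. They were split into 243 with a site shared by both ATAC libraries, 82 with ATAC peaks but no shared site and 66 with no ATAC peak. H3K4me1 covered 83.8, 74.9 and 80.3% of bases (replicates 1, 2 and 3) in domains with a shared site and 78.0, 70.8 and 75.7% in those with unshared peaks. In domains with no ATAC peak it covered 51.9, 43.2 and 47.1%, below the other domains in each library. H3K4me2 covered 43.5 and 57.9%, then 35.3 and 50.9%, and 17.0 and 25.6% in the same 3 sets.

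Width and H3K27ac also moved with this split. The median width was 11216 bp with a shared site, 10271 bp with unshared peaks and 9819 bp with none. The median H3K27ac fold enrichment was 4.43 and 4.03, then 3.68 and 3.42, and 2.99 and 2.87 in replicates 1 and 2. A peak of H3K4me3 replicate 2 was present in 66.3, 45.1 and 6.06% of the sets. The lower enrichment of domains without ATAC peaks is also a lower signal in the list that defined them, and its part in the lower methylation cover was not tested. Among domains of 8 to 16 kb, H3K4me1 covered 83.6, 75.5 and 79.9% with a shared site (199 domains) and 56.2, 46.5 and 50.9% with no ATAC peak (62 domains). Their median widths were 10245 and 9512.5 bp. Their median H3K27ac folds were 4.37 and 3.90 with a shared site and 2.99 and 2.87 with no ATAC peak. The part of width and of H3K27ac enrichment within this band was not tested.

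Over all 391 domains, the Spearman rho with the number of shared ATAC sites was 0.48 for H3K27ac fold enrichment, 0.35 for H3K4me2 cover, 0.26 for H3K4me1 cover and 0.25 for width. These values describe domains read in the same libraries and carry no test. The relation with H3K4me2 was not a steady climb. By quartile of H3K4me2 cover, lowest first, 29.6, 73.5, 79.4 and 66.3% of the domains held a shared ATAC site.

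**Figure D4:**
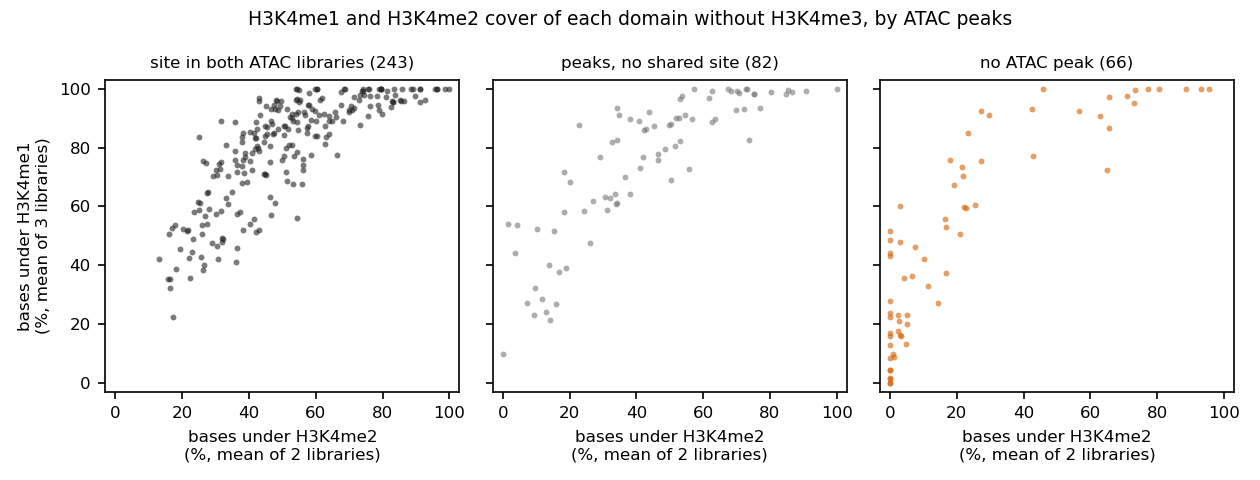
Mean H3K4me2 cover (horizontal, % of bases, 2 libraries) and mean H3K4me1 cover (vertical, % of bases, 3 libraries) of each broad H3K27ac domain without H3K4me3. The panels hold the 243 domains with an ATAC site in both libraries, the 82 with unshared ATAC peaks and the 66 with none. Domains with no ATAC peak reach down to 0% of both marks, while the 243 with a shared site all lie above 0% on both axes.

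The weak H3K4me3 peaks marked a similar division. The 209 domains with a peak of either H3K4me3 library held a shared ATAC site in 80.4% of cases (168 domains), against 41.2% (75 domains) of the 182 without any. H3K4me1 covered 85.5, 76.9 and 82.4% of bases in the 209 domains and 67.4, 59.1 and 63.6% in the 182. H3K4me2 covered 45.5 and 60.1% in the 209 domains and 27.6 and 40.2% in the 182. The 209 domains were also wider, at a median of 11405 bp against 10060.5 bp, and had higher H3K27ac folds, at medians of 4.42 and 4.03 against 3.35 and 3.24. The part of H3K27ac enrichment in the other differences was not tested. Within 8 to 16 kb the shared ATAC site was present in 79.5% of 166 domains with a peak of either H3K4me3 library and in 39.9% of 168 without one. Median widths within this band were 10477 and 9733 bp, and the part of width was not tested.

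The widest domain without H3K4me3 was chr19:37008579-37047218 (38.6 kb), and it held no shared ATAC site. H3K27ac folds there were 3.62 and 3.57. A single H3K4me1 peak in each library covered 97.7, 97.6 and 97.7% of it, and H3K4me2 covered 47.8 and 59.4% in 4 and 6 peaks. Its only ATAC peak was in replicate 2, at a fold of 4.19, and H3K4me3 replicate 2 had 2 peaks. The nearest consensus H3K4me3 region lay 5.08 kb away.

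The next widest, chr1:33664916-33703530 (38.6 kb), held 1 shared ATAC site. It was a single H3K27ac peak in replicate 1 and 5 peaks in replicate 2, with folds of 4.75 and 4.18. H3K4me1 covered 88.7, 69.9 and 82.6% of it. The third, chr11:31721133-31754353 (33.2 kb), held 4 shared ATAC sites, as many as any domain, the strongest with a mean fold of 12.3. H3K27ac folds there were 5.17 and 4.61, H3K4me1 covered 100, 90.4 and 100% and H3K4me2 47.9 and 75.5%.

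Of the other 7 among the 10 widest, chr15:66968343-66998234 and chr1:186464401-186489346 held 3 shared ATAC sites each. Those on chr17:50146647-50176238 and chr2:33692860-33722201 held 2 each, and chr10:40946295-40972361 held 1. The domains chr18:21392506-21419134 and chr15:34990888-35017163 held none, each with a single ATAC peak in replicate 2. The widest domains thus ranged from 0 to 4 shared sites at similar widths. The chr1:186464401-186489346 domain had the highest H3K27ac folds of the 10, at 7.15 and 5.83. H3K4me3 replicate 2 had a peak in 8 of the 10 and replicate 1 in 0.

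**Figure D5:**
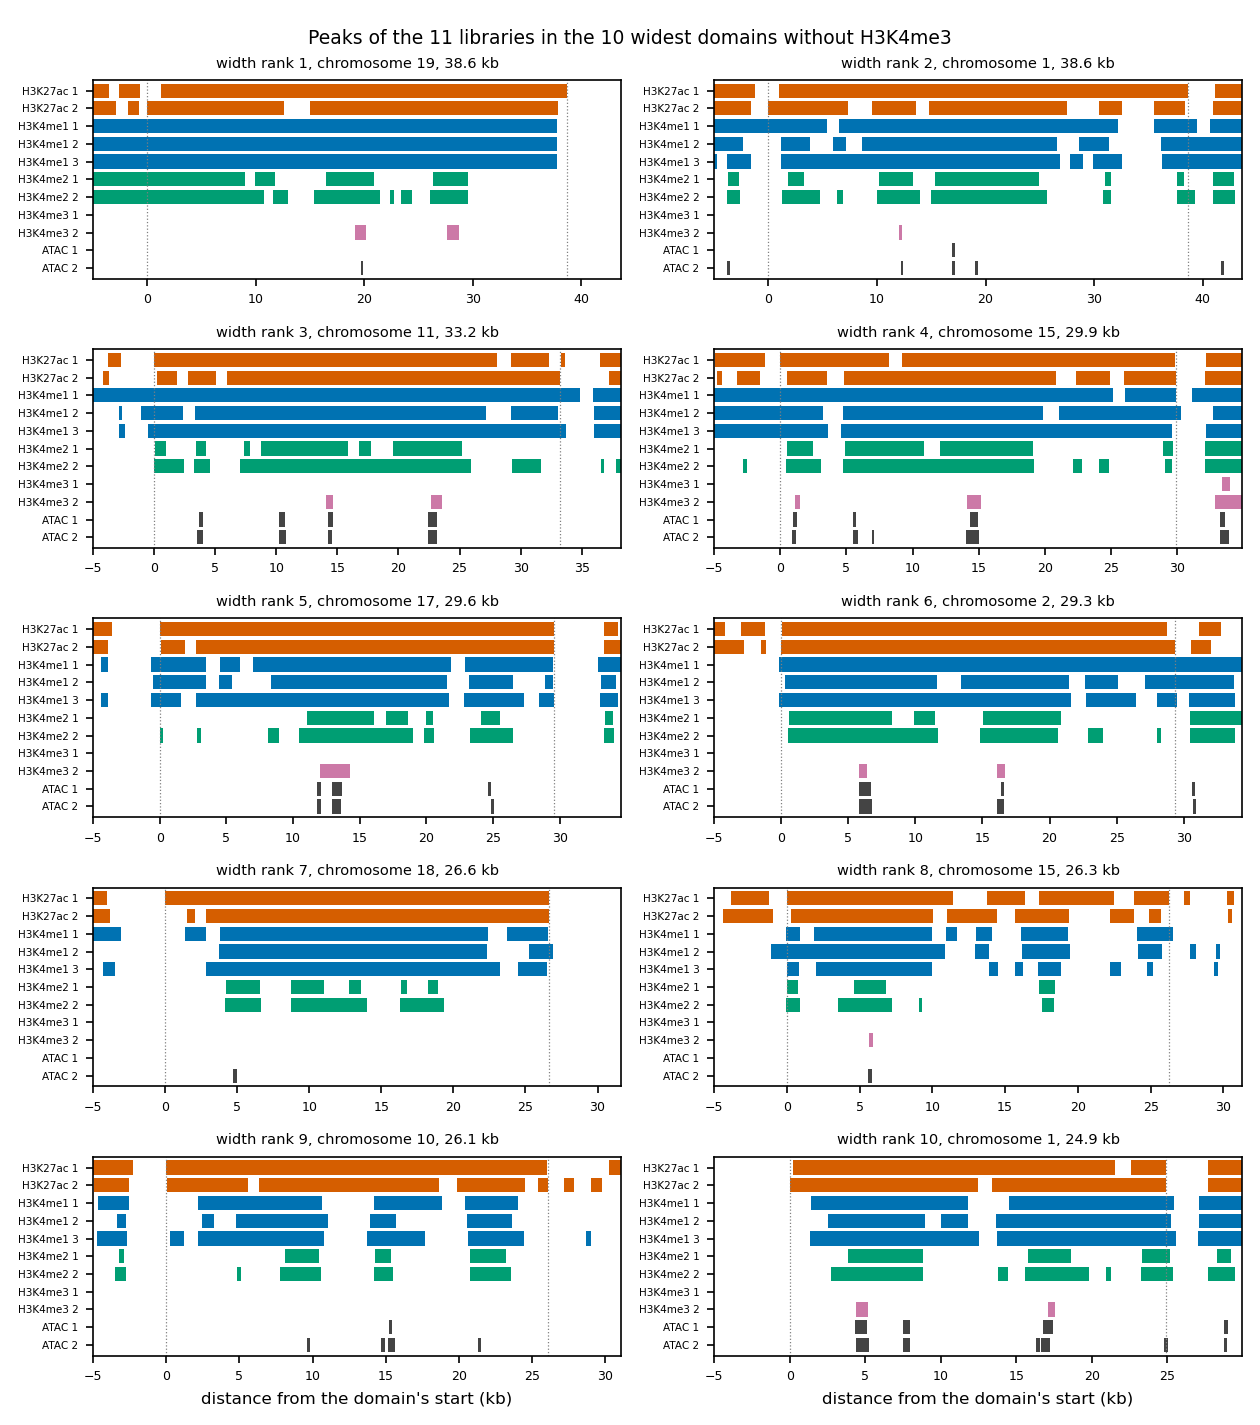
Peaks of the 11 libraries in the 10 widest H3K27ac domains without H3K4me3, with 5 kb on each side. The horizontal axis is the distance from the domain's start in kb, the dotted lines are its edges, each row is a library and each bar a peak. H3K4me1 spans most of the first domain (97.7% in replicate 1), H3K4me2 is broken into shorter peaks, and the third domain holds 4 ATAC peaks in each library.

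Other domains with many accessible sites were smaller. The domains chr9:70759734-70779268 (19.5 kb) and chr11:121403515-121416673 (13.2 kb) held 4 shared ATAC sites each, and H3K4me1 covered 95.3, 92.8 and 95.4% of the one on chromosome 9. The strongest single sites lay in short domains with 1 shared site each. Their mean folds were 15.2 in chr9:112899751-112908158, 14.6 in chr16:91081382-91090490 and 13.4 in chr2:65635766-65645418, all under 10 kb wide.

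The widest domains with no ATAC peak were poor in both methylation marks. In chr9:98219259-98238275 (19.0 kb), H3K4me1 covered 14.2, 15.2 and 23.7% and H3K4me2 1.05 and 3.63%. In chr2:103888057-103905280 H3K4me1 covered 18.0, 25.1 and 16.8%, and in chr13:36308851-36325184 it covered 13.5, 10.3 and 2.38%. In chr2:36011032-36027120 it covered 2.18, 0 and 2.45%, with no H3K4me2 peak. The domain chr6:32751355-32767259 (15.9 kb) had no H3K4me1, H3K4me2 or ATAC peak in any library. The same was true of chr5:23472127-23482672 (10.5 kb), which was singled out after its values were seen, and these were the 2 domains without any of these marks. H3K27ac folds in these 6 domains lay between 2.77 and 3.01, below the medians of 3.95 and 3.61 over all domains.

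The highest H3K27ac enrichment was found outside the widest domains, namely in chr15:6006820-6015345 (8.53 kb), with folds of 12.2 and 9.10, chr8:36621120-36633285 (12.2 kb), with 10.1 and 8.01, and chr12:12431494-12442918 (11.4 kb), with 8.60 and 7.44. The chr8:36621120-36633285 domain was covered by H3K4me1 to 100, 94.6 and 99.9% and held no shared ATAC site, with 1 peak in replicate 2 at a fold of 10.4. Over all domains the Spearman rho between width and H3K27ac fold was 0.21. The highest H3K4me1 enrichment was in chr2:126638151-126647595, at 7.18, 5.65 and 6.12. It was followed by chr4:14821247-14832594, at 6.70, 4.40 and 6.09, where H3K4me1 covered 19.8, 28.3 and 19.6% of bases, and by chr4:116720207-116733188, at 6.34, 4.91 and 5.05.

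The domains lay no farther from H3K4me3 than narrower regions without it. The median distance to the nearest consensus H3K4me3 region was 15.85 kb for the domains and 17.6 kb for regions under 8 kb without H3K4me3. It was 5 kb or less for 59 domains (15.1%) and over 50 kb for 76 (19.4%), of which 41 lay over 100 kb away. The nearest other broad H3K27ac domain of either kind lay 33.3 kb away at the median, and within 5 kb for 88 domains. A broad domain with H3K4me3 lay within 5 kb of 66 domains and another broad domain without it within 5 kb of 27.

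The 76 domains far from H3K4me3 were not poorer in marks. H3K4me1 covered 80.6, 71.7 and 76.1% of their bases, against 77.2, 68.8 and 74.0% in the 315 nearer ones. A shared ATAC site was present in 77.6% of the 76 and in 58.4% of the 315. Median H3K27ac folds were also higher in the 76, at 4.50 and 4.20 against 3.81 and 3.54. The part of H3K27ac enrichment in the ATAC shares was not tested. In the 66 domains within 5 kb of a broad domain with H3K4me3, 45.5% held a shared ATAC site, against 65.5% of the other 325. Their H3K27ac folds were also lower, at medians of 3.46 and 3.29 against 4.04 and 3.70.

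Both methylation marks were sparser outside the edges. In the first kb outside the domains, H3K4me1 covered 41.2, 26.4 and 32.7% of bases and H3K4me2 6.10 and 10.8%. In the first kb outside broad domains with H3K4me3, H3K4me1 covered 55.3, 39.8 and 47.3% and H3K4me2 23.3 and 31.4%, and outside regions under 8 kb without it 45.0, 32.3 and 36.8% and 11.6 and 17.4%. From 10 to 20 kb outside the domains, H3K4me1 covered 37.0, 29.5 and 33.2%, about as much as in the first kb. H3K4me2 covered 18.9 and 23.2% there, more than in the first kb. It also rose outside the narrower regions, to 15.2 and 18.3%, and fell outside broad domains with H3K4me3, to 15.9 and 19.6%. The edges were set where H3K27ac peaks end, so H3K27ac covered 2.63 and 3.33% of the first kb outside the domains, against 32.3 and 28.1% at 10 to 20 kb.

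The density of ATAC summits was also counted with and without H3K4me3 sequence. Counted over all bases, the domains without H3K4me3 held 0.75 and 1.17 ATAC summits per 10 kb, against 1.38 and 1.80 in broad domains with H3K4me3, a difference of −0.63 ± 0.000279 (SD, n = 2 libraries). When the bases under a peak of either H3K4me3 library and 1 kb around it were left out of both classes, 85.2% of the bases of domains without H3K4me3 and 48.1% of those with it remained. The densities were then 0.34 and 0.70 against 0.16 and 0.40, a difference of 0.24 ± 0.081 in the opposite direction. The rule that chose the domains uses H3K4me3, so leaving out its peaks takes mostly sequence of the other class. The reversal is therefore a description without a test, and it was added after the data were seen.

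On the same remaining bases, H3K4me2 covered 28.6 and 43.8% in domains without H3K4me3 and 39.7 and 56.6% in broad domains with it. H3K4me1 covered 74.1, 64.4 and 70.1% and 85.4, 75.4 and 81.3%. Both marks were lower in the domains without H3K4me3 in every library on these bases as well. The H3K4me2 difference shrank from −29.1 percentage points over all bases to −11.9, and to −7.59 outside consensus H3K4me3 regions and 1 kb around. The H3K4me1 difference went from −11.9 to −11.2 and −8.50 in the same settings. These settings were also added after the data were seen.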

How the data were processed

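ChIP-seq of fetal liver and ATAC-seq of proerythroblasts gave 11 peak lists from 12 samples. Per the submitters' processing notes, Trimmomatic 0.32, Bowtie 1.0.1, SAMtools and MACS2 were used with the mouse build mm9. The sources used here do not give the MACS2 version, its settings, the control library or the handling of ATAC cut sites. Each library has its own list deposited by the authors, made without pooling replicates. For each peak the deposited columns give a fold enrichment over background (a ratio) and −log10 p and q values. The deposited score column was not used.

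Autosomal, X and Y peaks were merged as described, setting aside 7 mitochondrial ones, with Python 3.11.15, pandas 2.3.3, numpy 2.4.6 and scipy 1.17.1. Regions met when they shared 1 bp. Positions count from 1. Interval functions were tested on simulated data. The library was the replicate: cover or share was read in each region class within each library, and the differences got a two-sided exact permutation test by sign flips. Domains were named by rank of width, of shared ATAC sites, of width without ATAC peaks and of the fold enrichment of H3K27ac, H3K4me1 and ATAC. The domains and lists were chosen with earlier results of these data known. Planned lists of marker genes and sequence motifs were not used here, since they need an mm9 annotation and genome. The alternatives tried were a 12 kb minimum width, no peak of either H3K4me3 library, −log10 q of 5 or more, a 50% overlap, regions of like width and leaving out each library.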

Additional observations from a re-analysis of the deposited data

How the results depend on the processing

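Over the 11 results followed under these alternatives, 13 values moved by more than 1 SD, or by over 1.5 times for the number of domains. A sign change was seen in 8 differences, including those in ATAC summits per 10 kb outside H3K4me3 sequence. For the share with a shared ATAC site, the SD used was that of the share with an ATAC peak in each library. The number of domains was 137 with a 12 kb minimum and 182 with no peak of either H3K4me3 library. With −log10 q of 5 or more it was 582, of which 251 overlapped the 391. Leaving out libraries gave 189 to 391 domains, 189 without H3K4me3 replicate 1 and 245 without H3K27ac replicate 1. With no peak of either H3K4me3 library, H3K4me1 cover was 63.4%, H3K4me2 cover 33.9% and the share of domains with a shared ATAC site 41.2%. That share was 88.0% with −log10 q of 5 or more. Leaving out libraries gave ranges of 64.1 to 83.9% for H3K4me1 cover, 34.4 to 54.2% for H3K4me2 cover and 43.4 to 83.1% for the ATAC share. The difference in H3K4me1 cover from broad domains with H3K4me3 was 0.097 ± 5.74 percentage points with −log10 q of 5 or more, and −21.1 to −5.13 without single libraries. From narrower regions it was −5.90 with no peak of either H3K4me3 library. For domains of 8 to 16 kb against regions of 4 to 8 kb it was −2.29. Without single libraries it ran from −5.47 to 13.8, with −5.47 without H3K4me3 replicate 1. Without single libraries, the H3K4me2 difference from narrower regions ran from −9.00 to 7.35, being 3.26 without H3K27ac replicate 1 and 7.35 without replicate 2, and from broad domains with H3K4me3 from −36.5 to −24.3. With no peak of either H3K4me3 library these were −9.25 and −36.9, and with −log10 q of 5 or more −11.0 and −28.5. The difference in ATAC summits per 10 kb was 0.24 outside peaks of either H3K4me3 library and 0.48 outside consensus H3K4me3, and −0.84 to −0.55 without single libraries. The difference in the share with an ATAC peak without single libraries was −41.7 to −16.7 from broad domains with H3K4me3 and 32.7 to 63.5 from narrower regions. The cause of these changes was not tested. Every tested difference was itself paired, being taken between region classes of the same library. Between libraries, no paired analysis was possible because each comparison sets region classes against each other within a library. Thus no libraries are left to pair. Date-like tags in the titles recur across marks under different replicate numbers and were not used. Depth is unknown, so a missing peak may be a missed call.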
